A study of Mus musculus with 12 samples.

Results

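The genes examined were 10 C-type lectin receptor genes of myeloid cells: Clec4e, which encodes Mincle, Clec4d, Clec4n, Clec4a1, Clec4a2, Clec4a3, Clec7a, Clec5a, Clec12a and Clec4f. They were found by symbol through their Ensembl identifiers, and all 10 were listed among the 55357 gene identifiers of each of 2 tables of raw counts, 1 for livers and 1 for RAW264.7 cells. The genes were chosen by name around Clec4e, which had been selected on its higher RNA with esculetin in the cells, so the cell values of the 10 genes are given as a description without a p-value, and the 10 genes are tested only in the livers. The livers came from male wild-type C57BL6/J mice aged 8-9 weeks. By oral gavage on 7 days, 3 samples received 90 mg/kg/day of the plant coumarin esculetin and 3 its vehicle, 2.5% Tween-80. All of these mice ate a control diet with 10% of its energy from fat for 4 days and then a high-fat diet with 60% for 3 days, and the study's supplement states that each liver sample combined a pair of mice. RAW264.7 is a continuous mouse macrophage line, labelled wild type. All 6 of its libraries had been exposed to 25 µg/mL of oxidized low-density lipoprotein carrying the dye DIL, together with esculetin at 40 µg/mL in 3 libraries or DMSO, the solvent, in the other 3, for 24 hours. Animals without the high-fat diet and cells without the lipoprotein were not analysed here, and the labels do not say whether the cell libraries came from separate cultures, so errors there measure the spread between libraries, which may be technical.

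C-type lectin receptors are membrane proteins through which macrophages, dendritic cells and neutrophils bind sugars, glycolipids and products of damaged cells. Mincle, its neighbour MCL (Clec4d) and Dectin-2 (Clec4n) pair with the adaptor Fc receptor gamma chain, MDL-1 (Clec5a) pairs with DAP12, and Dectin-1 (Clec7a) carries its own activating motif. These receptors signal through the kinase Syk and the CARD9 complex to cytokine genes, whereas MICL (Clec12a) and DCIR (Clec4a2) carry an inhibitory motif that recruits phosphatases. Clec4f is known as a receptor of Kupffer cells, the resident macrophages of the liver.

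All 10 genes lie on chromosome 6 of GRCm39, and 6 of them form a block of 371 kb from Clec4a1 to Clec4e. To show what precedes the 3 activating receptor genes with the highest level in treated cells, and the inhibitory one that went the other way, the 250 bases before the annotated start of the canonical transcript (GENCODE, GRCm39) are given below for Clec4e (chr6:123266830-123267079, minus strand), Clec4d (chr6:123238826-123239075, plus strand), Clec5a (chr6:40562774-40563023, minus strand) and Clec12a (chr6:129326677-129326926, plus strand), each 5′ to 3′ in the direction of transcription. Capitals mark matches on either strand to letters bound by the myeloid factor PU.1 (GAGGAA), by C/EBP (TTGCNNAA) and by interferon-responsive factors (GAAANNGAAA). Also searched were AP-1 (TGANTCA), with no match in the 10 windows, and NF-κB (GGGANNNNCC), with 1 match, in the window of Clec4a1.
Clec4e: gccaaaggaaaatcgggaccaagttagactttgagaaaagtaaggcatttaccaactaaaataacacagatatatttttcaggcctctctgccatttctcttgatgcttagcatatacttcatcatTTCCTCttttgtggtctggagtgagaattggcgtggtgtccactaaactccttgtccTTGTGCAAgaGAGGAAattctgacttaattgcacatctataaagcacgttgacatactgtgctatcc
Clec4d: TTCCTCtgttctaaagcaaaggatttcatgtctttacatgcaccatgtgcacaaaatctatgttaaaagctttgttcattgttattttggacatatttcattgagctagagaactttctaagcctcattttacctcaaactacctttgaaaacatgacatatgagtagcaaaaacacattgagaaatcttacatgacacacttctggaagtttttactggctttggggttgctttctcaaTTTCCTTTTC
Clec5a: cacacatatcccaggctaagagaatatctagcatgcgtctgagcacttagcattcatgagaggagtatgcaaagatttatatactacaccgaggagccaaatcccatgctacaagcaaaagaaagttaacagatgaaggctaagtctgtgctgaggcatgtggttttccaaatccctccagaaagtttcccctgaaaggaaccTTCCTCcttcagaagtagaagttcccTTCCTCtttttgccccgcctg
Clec12a: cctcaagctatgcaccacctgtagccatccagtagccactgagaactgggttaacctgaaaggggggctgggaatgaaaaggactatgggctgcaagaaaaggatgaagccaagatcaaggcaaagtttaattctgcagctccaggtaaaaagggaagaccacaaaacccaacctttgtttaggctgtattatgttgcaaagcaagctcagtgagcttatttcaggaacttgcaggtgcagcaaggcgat

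In these windows no match overlapped another. The PU.1 letters occurred in the windows of 8 of the 10 genes, while 22.9% of 21770 protein-coding promoters of the same length held them. Only the windows of Clec12a and Clec4f had no match to any of the 5 patterns. The canonical transcripts of Clec12a, Clec4a1 and Clec4a2 start inside the annotated gene, so their windows lie within it. The Clec12a window begins at 129326677 and the gene at 129319654, and other starts were not searched. The C/EBP letters occurred in 1 window, that of Clec4e, beginning 67 bases before the start and followed by a PU.1 match beginning at 57 bases. Of all promoters 9.34% held the C/EBP letters. The interferon-responsive letters occurred before Clec4d, directly upstream of its start, and in 3.32% of all promoters. A match is a description of letters and not of binding.

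The libraries held 14659876 to 20346460 counts in the liver and 13752842 to 20001959 in the cells. Values below are CPM, counts relative to library size, after scaling by the trimmed mean of M-values (TMM), with the SD over 3 libraries, and a count of 0 in a library allows up to 3 counts, 0.146 to 0.219 CPM in the cells and 0.148 to 0.195 CPM in the liver, covering counting error only. On the first principal component of the liver table, control replicate 1 stood apart at 47.9, with the other 5 libraries between -19.4 and 3.44; in the cells the first component separated the treatments. The macrophage label of the cells was matched by the general macrophage markers but not by all Kupffer cell markers. All 12 general macrophage markers had counts, among them Csf1r with 15266 to 31569 and Adgre1 with 604 to 720. The C1q genes C1qa, C1qb and C1qc, Timd4 and C6, all on the Kupffer cell list, were at 0 in all 6 libraries. The 8 hepatocyte markers summed to at most 0.877 CPM.

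In the cells, the RNA of Clec4e, Clec5a and Clec4d was higher with esculetin and that of Clec12a was lower. Clec4e, whose product binds cord factor of mycobacteria and a protein released by dying cells, was at 17.6, 16.1 and 18.4 CPM in the control libraries and at 135, 147 and 154 CPM with esculetin. The groups were far apart and each was narrow, at 17.4 ± 1.17 and 145 ± 9.76 CPM (SD, n = 3), which is 8.35-fold or 3.06 on the log2 scale (SE 0.10). Clec5a, the DAP12-coupled receptor known for binding flaviviruses, was at 29.6, 22.2 and 23.5 CPM in the controls and at 194, 223 and 287 CPM with esculetin. It differed by 3.22 on the log2 scale (SE 0.16), 9.35-fold, with a wider spread among the esculetin libraries, 47.4 CPM, than Clec4e. Clec4d, which forms a complex with Mincle, differed less, from 15.2, 14.1 and 13.4 CPM to 32.4, 44.9 and 41.9 CPM. Its log2 fold change was 1.48 (SE 0.14), and its esculetin library with the lowest value still lay above every control.

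**Figure D1:**
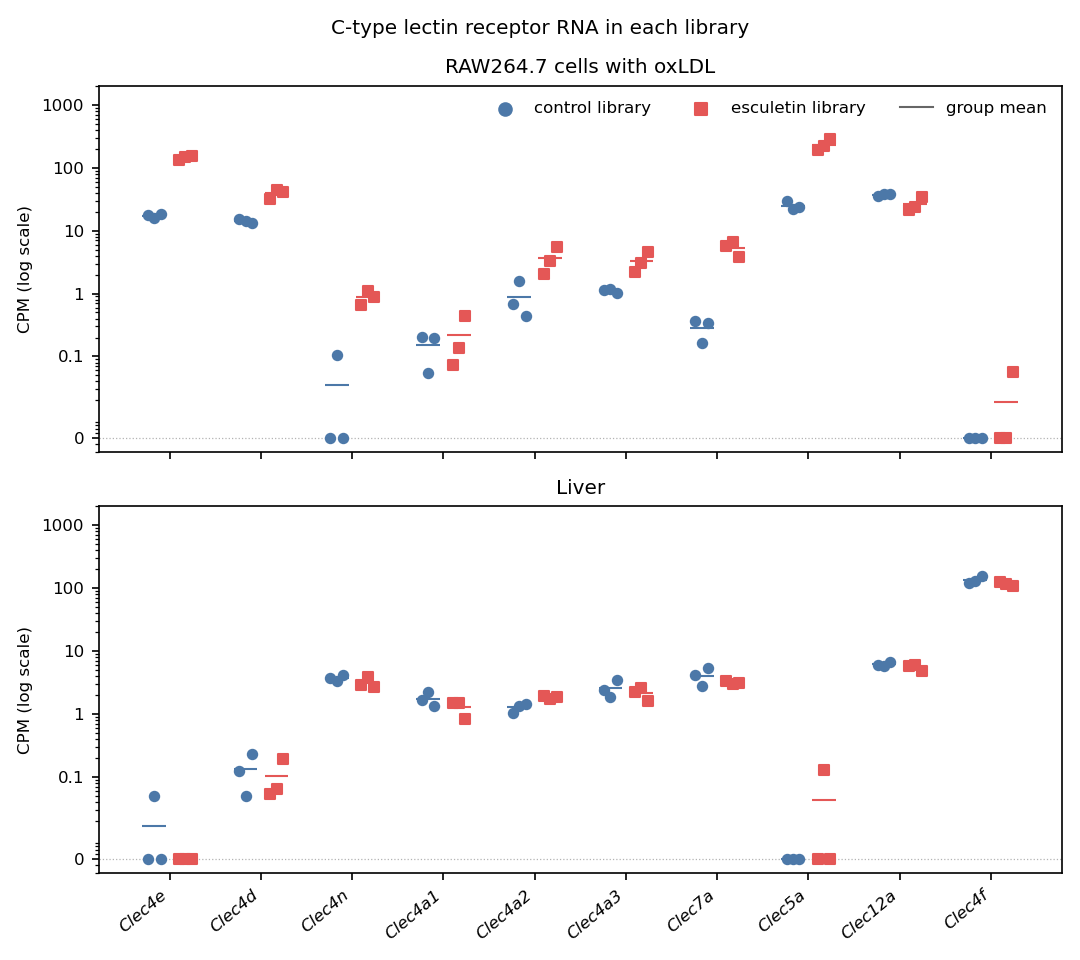
CPM of the 10 receptor genes in each library of RAW264.7 cells (upper panel) and liver (lower panel), on a log axis with 0 drawn at the dotted line. Circles are control libraries, squares esculetin libraries and short lines group means of 3. Clec4e and Clec5a stand at 135 CPM or more in all esculetin-treated cell libraries and have counts in at most 1 liver library each, while Clec4f stands above 100 CPM in all livers and at 0 or 1 count in the cells.

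Dectin-1 and Dectin-2 started from almost nothing in the control cells. Clec7a, the receptor for β-glucans, held 7, 3 and 7 counts in the controls and 78, 97 and 68 with esculetin. That is 0.288 ± 0.11 and 5.36 ± 1.44 CPM (SD, n = 3), or 4.17 on the log2 scale (SE 0.37), while its level with esculetin stayed below those of Clec4e and Clec5a. Clec4n, which recognises fungal mannans, held 0, 2 and 0 counts against 9, 16 and 16. The ratio of its summed counts was 25.9, with an exact binomial interval of 6.72 to 221 at the 95% level for counting error only, and both control counts came from replicate 2.

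The DCIR family was low throughout. Clec4a2, the inhibitory receptor DCIR, held 13, 29 and 9 counts in the controls and 28, 48 and 100 with esculetin, which after scaling gave 0.673, 1.56 and 0.437 against 2.05, 3.27 and 5.57 CPM. Its log2 fold change was 2.05 (SE 0.47) and 2.72 without control replicate 2, its highest control. The transcripts of Clec4a2 share an unbroken stretch of 163 bases with Clec4a4 and 82 with Clec4b1, against a read length of 150. Those relatives held 2 counts and 0 counts in all 6 cell libraries. How reads matching several genes were counted is not stated, so the part of shared reads in the Clec4a2 values was not tested. Clec4a3 was at 1.14, 1.18 and 1.02 CPM in the controls and at 2.19, 3.06 and 4.62 with esculetin, a log2 fold change of 1.57 (SE 0.33). Clec4a1 held 1 to 4 counts in the controls and 1 to 8 with esculetin, with overlapping groups, and was not tested. No pair of the 10 genes shared an exact stretch longer than 39 bases.

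Clec12a, the inhibitory receptor MICL, was the one gene of the 10 with less RNA in all esculetin-treated cell libraries than in any control. It was at 35.4, 38.3 and 37.8 CPM in the controls and at 21, 23.5 and 33.8 CPM with esculetin, a log2 fold change of -0.50 (SE 0.16). The third esculetin library came near the controls; without it the difference was -0.74, and without esculetin replicate 1 it was -0.37. Clec4f was at 0 in 5 cell libraries and at 1 count in the other.

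Counted by the call used for all genes, an edgeR adjusted p-value under 0.05, the filter on low counts passed 8 of the 10 genes in the cells (not Clec4a1 and Clec4f). Of these 8, 7 lay on the higher side of the call and 1 on the lower, beside 28.7% of all 13277 tested genes that were called higher, 29.0% that were called lower and 57.7% in either direction. The groups did not overlap for the same 8, beside 64.1% of all tested genes. The median log2 fold change of the 8 was 2.56, against -0.01 over all tested genes. Since the genes were chosen with this contrast in view and a low gene passes the filter through the group where it is higher, these counts describe the choice and nothing is read from them. Without esculetin replicate 2 Clec12a missed the call, which left 7.

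**Figure D2:**
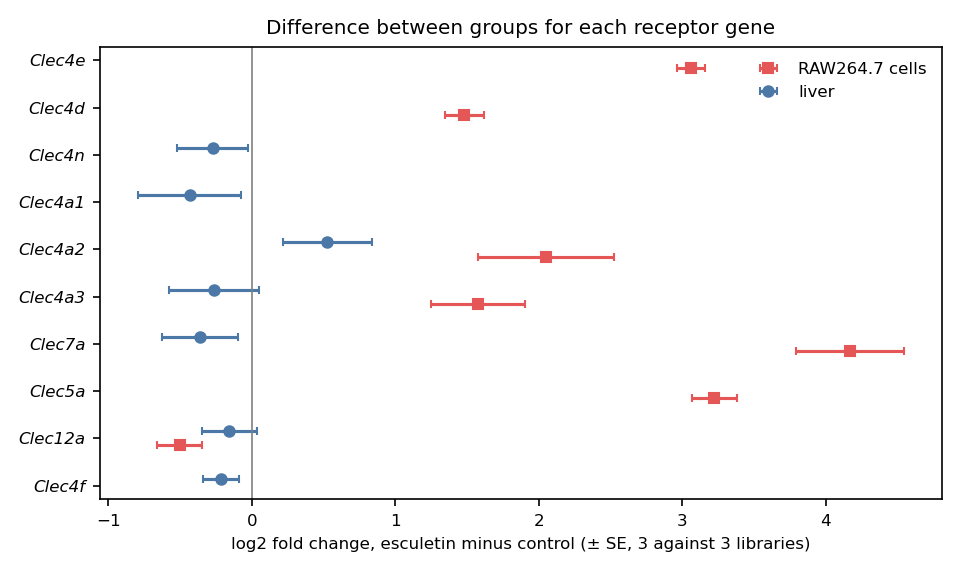
Log2 fold change, esculetin minus control, of each receptor gene that was tested, with SE, from 3 against 3 libraries; squares are RAW264.7 cells and circles livers. Clec4n in the cells is left out because its controls held at most 2 counts a library, and the liver values lie between -0.43 and 0.53 while the cell values reach 4.17.

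Levels were compared between genes per length of transcript, as RPKM (CPM divided by the union of annotated exons in kb). In control cells Clec4d led at 8.87 ± 0.551 RPKM (SD, n = 3), followed by Clec12a at 6.30 ± 0.266, Clec5a at 5.64 ± 0.881 and Clec4e at 3.50 ± 0.235. The ranges of Clec12a and Clec5a overlapped, so their order is within the spread, and it also rests on the length taken for Clec12a, which came first, at 11.5 RPKM, when the longest transcript was used. The other 6 genes stood at 0.327 RPKM or less. With esculetin the order became Clec5a at 52.6 ± 10.7, Clec4e at 29.2 ± 1.97, Clec4d at 24.8 ± 4.08 and Clec12a at 4.43 ± 1.15 RPKM, where Clec4e and Clec4d overlapped.

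The summed level of the 10 genes was 26.4, 24.6 and 24.4 RPKM in the control cells and 98.3, 117 and 133 RPKM with esculetin. Within that sum the inhibitory receptor Clec12a held 25.1% ± 2.1 in the controls and 3.78% ± 0.482 with esculetin (SD, n = 3). Its own level was 6.30 and 4.43 RPKM, so its share also carries the larger sum, whose genes were chosen with this contrast in view. It also depends on the length taken for Clec12a. The share of Clec5a was 22.4% ± 2.49 and 45.2% ± 2.98, and that of Clec4e 13.9% ± 1.1 and 25.4% ± 2.11. Clec4d took a smaller share of the larger sum, 35.3% ± 0.891 in the controls and 21.4% ± 2.25 with esculetin, although its level was higher.

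**Figure D3:**
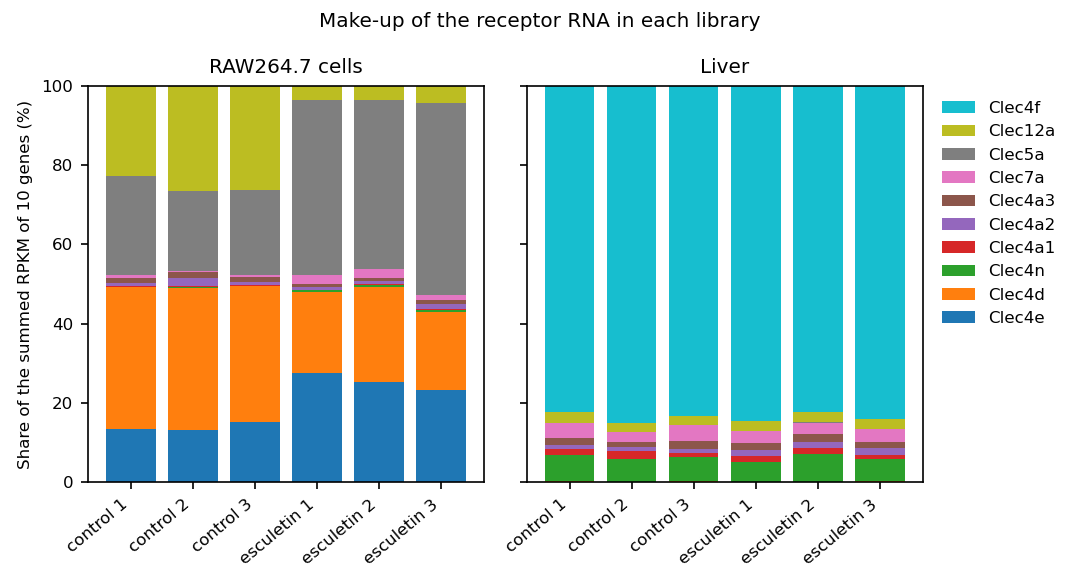
Share of each gene in the summed RPKM of the 10 receptor genes, in percent, for each of the 6 libraries of RAW264.7 cells (left) and liver (right). In the cells Clec5a and Clec4e widen from 22.4% and 13.9% to 45.2% and 25.4% on average while Clec12a narrows, and in the liver Clec4f holds more than 82% in all 6 libraries.

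The liver comparison asked whether the same receptors differ in the whole organ of treated mice, and it was not used to choose the genes. None of the 7 receptor genes that could be tested was called. In the liver the set of receptors present was another one: Clec4e held 1 count in 1 control library and 0 in the other 5, Clec5a held 2 counts in 1 esculetin library and 0 in the other 5, and Clec4d held 1 to 4 counts in each library. These 3 genes did not pass the filter on low counts, and no difference was detectable at this depth.

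Clec4f was by far the most abundant of the 10 in the liver. It was at 122, 132 and 154 CPM in the controls and at 126, 119 and 107 CPM with esculetin, in overlapping groups. The difference on the log2 scale was -0.22 (SE 0.13, interval -0.49 to 0.06 at the 95% level), with 0.668 as the edgeR adjusted p-value. Per length it stood at 36.7 ± 4.4 RPKM in the control livers and 31.6 ± 2.61 with esculetin (SD, n = 3), which was 83.6% and 83.7% of the summed level of the 10 genes. In bulk tissue fewer cells of a type and less RNA per cell cannot be told apart. Beside Clec4f, the summed CPM of 12 other Kupffer cell markers was 682 to 841 in the controls and 734 to 877 with esculetin, all 12 were tested and none was called. Of these markers 8 had a log2 fold change below 0. Marco (4.34 ± 0.354 against 2.54 ± 0.32 CPM) and Id3 (62.4 ± 13.4 against 42.8 ± 0.951 CPM) were lower in every esculetin liver than in any control (SD, n = 3). Of all tested liver genes, 14.5% had groups that did not overlap. The means of C6 (174 and 213 CPM) and Nr1h3 (145 and 171 CPM) were higher with esculetin in overlapping groups.

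Clec4n and Clec7a followed, at 2.67 ± 0.301 and 1.54 ± 0.472 RPKM in the control livers. Clec4n was at 3.74, 3.4 and 4.25 CPM in the controls and at 2.89, 3.89 and 2.65 with esculetin, a difference of -0.27 on the log2 scale (SE 0.25) with 0.786 as the edgeR adjusted p-value. Clec7a was at 4.11, 2.81 and 5.3 CPM and at 3.38, 2.98 and 3.1 CPM, with -0.36 (SE 0.27) and 0.741. Both sets of groups overlapped. Clec12a, at 6.22 ± 0.498 and 5.57 ± 0.572 CPM (SD, n = 3), differed by -0.16 on the log2 scale (SE 0.19), and its edgeR adjusted p-value was 0.853. The ranges of Clec7a and Clec12a per length overlapped in the control livers, so their order there is within the spread.

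All 3 DCIR genes could be tested in the liver. Clec4a1 was at 1.74 ± 0.445 CPM in the controls and 1.29 ± 0.386 with esculetin, and Clec4a3 at 2.59 ± 0.789 and 2.15 ± 0.495 (SD, n = 3), with log2 fold changes of -0.43 (SE 0.36) and -0.26 (SE 0.31) and edgeR adjusted p-values of 0.762 and 0.852. Clec4a2 was the one receptor gene whose liver groups did not overlap, at 1.04, 1.33 and 1.46 CPM in the controls and 1.91, 1.75 and 1.87 with esculetin. Its log2 fold change was 0.53 (SE 0.31, interval -0.15 to 1.20 at the 95% level), with an edgeR adjusted p-value of 0.669 and an unadjusted one of 0.116. Of all tested liver genes, 14.5% had groups that did not overlap, 6.52% on the higher side. Clec4b1, which shares a stretch of sequence with Clec4a2, held 6 counts in all control livers and 15 with esculetin.

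Of the 7 tested receptor genes 0 were called in the liver by edgeR, 0 had an unadjusted p-value under 0.05 and 0 were called by DESeq2 or limma-voom. Among all 12813 tested liver genes 0.0859% were called and 8.37% had an unadjusted p-value under 0.05. The median log2 fold change of the 7 was -0.26, against -0.02 over all tested genes, with 6 of 7 below 0 beside 53.5% of all tested genes. Without control replicate 1, the library that stood apart, the count called was again 0. The difference between the cell and liver values of a gene was not tested, because the cell contrast had entered the choice, and each table was scaled alone. Side by side, Clec4a2 was above 0 in both, Clec12a below 0 in both, and Clec7a, Clec4n and Clec4a3 were higher in the cells and below 0 in the liver.

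These receptors are also known in other immune cells, so the summed marker levels of those cells are given beside them. Monocyte and neutrophil markers, 10 of 12 with a count and Ly6g and Mpo at 0, summed to 3.99 to 5.3 CPM in the control livers and 2.99 to 3.62 with esculetin. These sums did not overlap, as for 14.5% of all tested liver genes, but they rest on few counts. Only 2 of these markers were tested, both with overlapping groups. S100a9 held 15, 19 and 9 counts against 5, 4 and 4, while the means of Elane, S100a8, Chil3 and Camp were higher with esculetin. Dendritic cell markers (9 of 9 with a count) summed to 8.92 to 9.87 and 7.27 to 10.1 CPM, and lymphoid markers (10 of 10) to 6.19 to 7.92 and 6.42 to 7.89 CPM. General macrophage markers (12 of 12) summed to 187 to 239 and 192 to 208 CPM. Of the 11 tested, 8 had a log2 fold change below 0 and 3 above it, Cd14 (0.34), Lgals3 (0.21) and Lyz2 (0.11). Csf1r, Adgre1, Cd68 and Spi1 were lower in all esculetin livers than in any control, beside the same 14.5% of all tested genes. None of these lists had a called gene. The part of these cells in the receptor values was not tested.

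In the cells the macrophage marker sum itself was higher with esculetin, 6707 to 10141 against 3066 to 3325 CPM, with 7 of 11 tested markers called, all higher, beside 57.7% of all tested genes called and 28.7% called higher. The monocyte and neutrophil sum was 141 to 147 against 41.4 to 43.4 CPM, and nearly all of it was Cx3cr1, while Ly6g, Camp, Ltf and Retnlg were at 0. Dendritic cell markers summed to 14.3 to 25.4 against 6.18 to 7.29 CPM, mostly Itgax, with Batf3 and Cd209a at 0. The other tested dendritic cell marker, Zbtb46, fell from 2.46 ± 0.466 to 1.24 ± 0.452 CPM (SD, n = 3; edgeR adjusted p-value 0.0226). The Kupffer cell markers, 7 of 12 with a count, summed to 2.26 to 4.02 against 3.73 to 5.32 CPM, with Cd5l called lower among the 3 tested. Their part in the receptor values was not tested.

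The position of the genes was not used to choose them. Clec5a (40551234 to 40562773) and Clec4f (83621524 to 83633169) stand alone on chromosome 6, while Clec12a and Clec7a span 130 kb (129319654 to 129449742) with Clec12b, Clec1b, Clec1a and Clec9a between them. In that pair the gene at one end was lower in the esculetin-treated cells and the gene at the other end higher. The 4 lectin genes between them held at most 23 counts over 3 cell libraries of a group and were not tested in the cells. In the liver Clec1b and Clec9a were tested, with log2 fold changes of 0.02 and -0.38 and edgeR adjusted p-values of 0.985 and 0.906; Clec1a overlaps both of them on the other strand, so reads there could be split. Beyond Clec7a, the autophagy gene Gabarapl1 fell by 1.04 on the log2 scale in the cells and had 0.21 in the liver with an edgeR adjusted p-value of 0.752, and Gm44243 had 0.24 in the cells and was not called. Clec5a overlaps at its end the olfactory receptor gene Or9a4 on the other strand, which held 16 counts in the control cells and 39 with esculetin, and the use of strand in counting was not stated.

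In the block of 371 kb (122896122 to 123266829) the members Clec4a1, Clec4a3, Clec4a2, Clec4n, Clec4d and Clec4e follow each other in that order, with Clec4a4, Clec4b1 and Clec4b2 among them at 2, 0 and 2 counts in the 6 cell libraries. All 5 members of the block that were tested in the cells were higher with esculetin, beside 28.7% of all tested genes called higher. The members were chosen with this contrast in view, so nothing is read from that count. The tested genes on its flank did not share one pattern. C3ar1, the receptor for complement C3a, held 281 counts in the control cells and 3891 with esculetin, a log2 fold change of 4.08. Foxj2 and Necap1, which lie on either side of C3ar1, had 0.24 and 0.07 and were not called. In the liver C3ar1 had -0.21 with an edgeR adjusted p-value of 0.861, and on the other flank of the block Vmn2r20, a vomeronasal receptor gene, had 0.99 with one of 0.305.

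**Figure D4:**
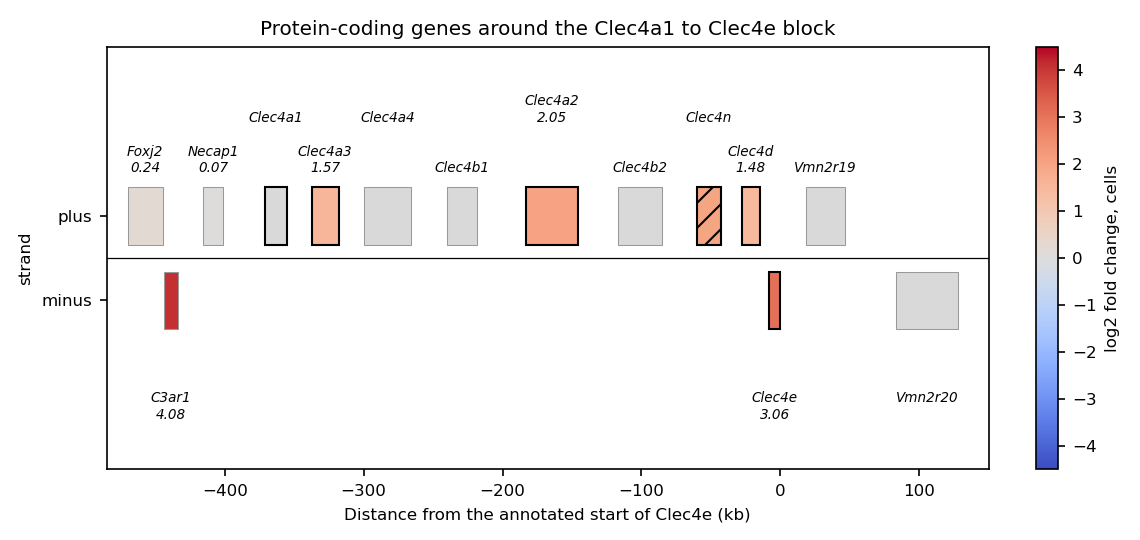
Protein-coding genes within 100 kb of the Clec4a1 to Clec4e block, by distance in kb from the annotated start of Clec4e, above the line for the plus strand and below it for the minus strand. Colour and number give the log2 fold change in RAW264.7 cells, black outlines mark the 6 receptor genes, pale grey boxes without a number were not tested, and Clec4n is hatched because its controls held at most 2 counts a library; C3ar1 stands at 4.08 and Clec4e at 3.06, with Foxj2 at 0.24 and Necap1 at 0.07.

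Genes of the pathway outside the 10 were taken from 5 lists compiled from general knowledge, 116 genes in the tables. In the cells 68 were tested and 49 were called, 40 higher and 9 lower, beside the 57.7% of all tested genes called in either direction, 28.7% higher and 29.0% lower. Their median log2 fold change was 0.53, against -0.01 over all tested genes. The lists were compiled with earlier results of these data known, and a low gene passes the filter through the group where it is higher. Nothing is read from these cell counts or from their median. In the liver 72 were tested and 0 were called by edgeR, with 7 at an unadjusted p-value under 0.05, beside 8.37% of all tested liver genes, and a median of -0.11. DESeq2 called 1 of them, Cebpb.

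Of all tested genes in the cells, 57.7% were called, 28.7% higher and 29.0% lower. Close to the receptors, the list of 25 adaptors and kinases had 14 called higher and 4 called lower there. By the smallest p-values these were Vav3, a guanine nucleotide exchange factor, with a log2 fold change of 0.97 (SE 0.10), the Src-family kinases Lyn with 0.90 (SE 0.09) and Src with 3.39 (SE 0.35), and Rubcn, which dampens CARD9 signalling, with -0.77 (SE 0.09). Other genes of this axis, named after their values were seen, did not share one direction. The kinase gene Syk had 0.82 (SE 0.11), the adaptor gene Fcer1g 0.30 (SE 0.09) and the adaptor gene Card9 -0.64 (SE 0.11), all called. Tyrobp, which encodes DAP12, had 0.17 (SE 0.09), Malt1 0.27 (SE 0.11) and Bcl10 -0.01 (SE 0.09), none of them called. On the inhibitory side 5 of 7 phosphatase and Dok adaptor genes were called, 2 higher and 3 lower, beside the same shares of all tested genes. Ptpn6, which encodes SHP-1, fell by 0.89 on the log2 scale (SE 0.08), Inppl1 by 0.31 (SE 0.07) and Dok1 by 0.30 (SE 0.12), while Dok2 and Dok3 rose by 1.03 (SE 0.15) and 0.61 (SE 0.10).

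The output list of 23 cytokine, chemokine and transcription factor genes had 13 tested in the cells. Of these 11 were called, all higher, beside 28.7% of all tested genes called higher. A gene low in the controls passes the filter through its esculetin libraries, so nothing is read from this count. Ptgs2, which encodes cyclooxygenase-2, had a log2 fold change of 3.29 (SE 0.11), Tnf 2.77 (SE 0.13), Egr2 2.73 (SE 0.15) and the chemokine gene Ccl4 4.82 (SE 0.29). Cxcl2, named after its values were seen, held 1 count in all control cells and 51, 88 and 148 counts with esculetin, a ratio of 362 with an interval of 64.5 to 14364. Not all outputs were present. Il6, Il12a, Cxcl1 and Csf2 were at 0 in all 6 cell libraries, and Nos2 (0.64, SE 0.28) and Nr4a1 (-0.14, SE 0.14) were tested and not called. In the liver 18 of the 23 did not pass the filter, Tnf, Il6, Ccl3, Ccl4 and Ptgs2 among them.

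From general knowledge 14 genes were listed as regulators of Clec4e or Clec7a. In the cells 8 of them were called higher and 2 lower, beside 28.7% and 29.0% of all tested genes. Tlr4, the lipopolysaccharide receptor, had a log2 fold change of 1.62 (SE 0.12), Cebpb 1.29 (SE 0.12), Stat6 0.72 (SE 0.08) and Rel, an NF-κB subunit, -0.67 (SE 0.12). In the liver Cebpb was at 63.9 ± 14.2 CPM in the controls and 105 ± 13.4 with esculetin (SD, n = 3), groups that did not overlap, with an edgeR adjusted p-value of 0.209. Of 47 other C-type lectin genes 9 were tested in the cells and 5 were called, a share no larger than the 57.7% of all tested genes called. All 5 were higher, beside 28.7% of all tested genes, but Klra2 and Cd93 passed the filter through their esculetin libraries. Nothing is read from the count. The 5 called genes were the scavenger receptor gene Colec12 with 2.52 (SE 0.16), the B-cell lectin gene Cd72 with 1.43 (SE 0.10), Klra2 with 4.77 (SE 0.38), the galactose-binding Clec10a with 0.55 (SE 0.15) and Cd93. Cd93 held 0, 3 and 2 counts in the controls and 22, 36 and 51 with esculetin, a ratio of 27.5 with an interval of 11.4 to 86.5. Mrc1, the mannose receptor, held 0 to 6 counts in the cell libraries.

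**Figure D5:**
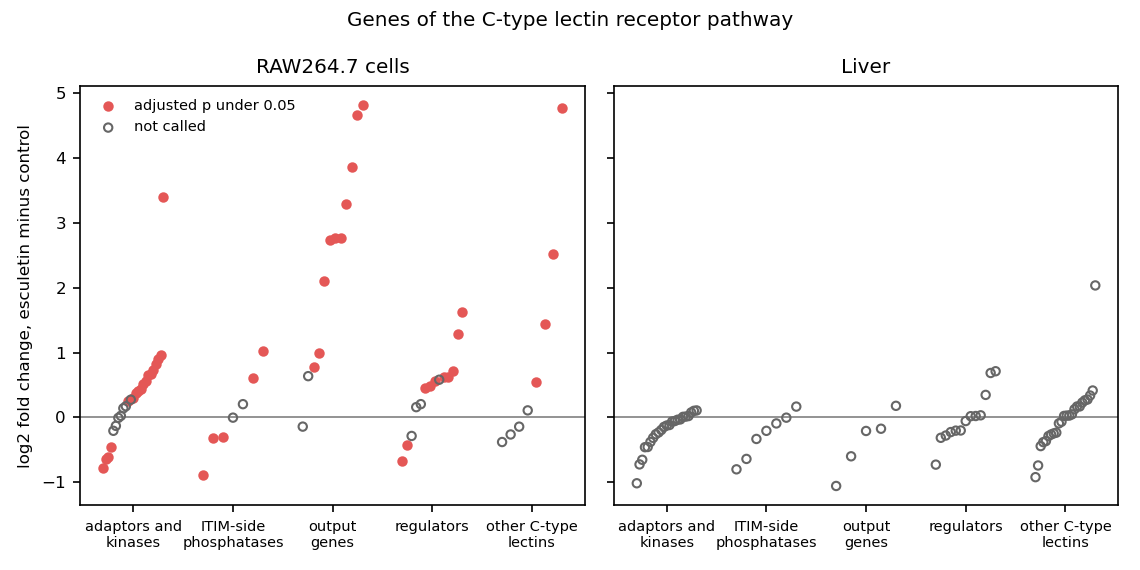
Log2 fold change, esculetin minus control, of every tested gene of the 5 pathway lists in RAW264.7 cells (left) and liver (right), ordered by value within a list. Filled points were called at an edgeR adjusted p-value under 0.05 and open points were not; Cxcl2 and Cd93 in the cells are left out because their controls held at most 3 counts a library. In the cells all filled points of the output list lie above 0, and in the liver no point is filled.

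The genes whose pattern over the 6 cell libraries was most like that of Clec4e were found by the root mean square difference of log2 CPM, each gene centred on its own control mean. They were Adam8, a membrane metalloprotease, at a difference of 0.127, Rgs16, a regulator of G protein signalling, at 0.129, Slc40a1, which encodes the iron exporter ferroportin, at 0.13, 6330403L08Rik at 0.149 and Cd14, the lipopolysaccharide co-receptor, at 0.151. Their log2 fold changes lay between 2.91 and 3.30, around the 3.06 of Clec4e. The 6 libraries share 2 groups, so the likeness mostly restates a fold change of similar size.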

How the data were processed

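RNA was measured in 12 libraries, 3 in each of 4 groups. The authors deposited raw counts per gene, 1 table for liver and 1 for cells, and no sample column was left unused. Per the study and its processing notes, they mapped paired-end reads of 150 bases to GRCm39 with HISAT2 2.2.1 and counted them with featureCounts. The use of strand, the treatment of multi-mapping reads and the annotation release are not given in the sources used here. Symbols and positions came from GENCODE for GRCm39, which held 54749 of the identifiers; 608 were not matched.

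Per table, edgeR 4.0.16 (R 4.3.3) was run with filterByExpr, TMM scaling and a quasi-likelihood F test of treatment. Its two-sided p-values were Benjamini-Hochberg adjusted over every gene tested. For 3 against 3 libraries the smallest two-sided exact permutation p-value is 0.1. Alternatives were RLE, upper quartile and library size scaling, no filter, a filter at 1 CPM in 3 libraries, DESeq2 1.42.0, limma-voom (limma 3.58.1) alone and with the study's criterion (unadjusted p-value 0.05, fold change 1.5), the replicate number as a block, and leaving out each library. The fits were tested on simulated data. Where control libraries held at most 3 counts each, a ratio of summed counts with an exact binomial interval replaced the fitted fold change.

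The 10 genes and all lists were chosen with earlier results of these data known. Named genes were the 10, up to 4 called genes with the smallest p-values in each pathway list (all where 5 or fewer were called), the 5 genes most like Clec4e, and tested genes in or within 100 kb of a block of several members; others are marked. Some genes of the marker lists are not reported here, and the lists were counted and summed without them. Figures used Python 3.11.15 and matplotlib 3.10.9. Protein sequences were not used here.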

Additional observations from a re-analysis of the deposited data

Results flagged for a closer look

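Of 116 pathway genes 4 had groups that did not overlap in either table and lay in opposite directions. In single tables the groups of 64.1% of all tested genes did not overlap in the cells and 14.5% in the liver. The share of all genes meeting both conditions in opposite directions was not computed, so nothing is read from the count of 4. Tlr4 was higher in the esculetin-treated cells, at 74.6 ± 4.74 CPM against 24.2 ± 3.54 in the controls (SD, n = 3), a log2 fold change of 1.62. In the liver it held 27, 12 and 22 counts in the controls and 7 in each esculetin library, 1.18 ± 0.54 against 0.429 ± 0.0417 CPM, and it did not pass the filter on low counts there. The other 3 were higher in the esculetin-treated cells and lower in the esculetin livers, where none was called. Vav1, a guanine nucleotide exchange factor, had log2 fold changes of 0.37 in the cells and -0.72 in the liver, Ikbkg, a subunit of the IκB kinase complex, 0.41 and -0.26, and Spi1, which encodes the myeloid transcription factor PU.1, 0.48 and -0.31. The differences between the tables were not tested. Groups of 3 libraries are too small for an outlier check of single libraries.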

How the results depend on the processing

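Over 15 alternatives 0 receptor genes were called in the liver, their log2 fold changes kept their sign in every fit, and adjusted p-values ran from 0.383 to 0.994. In the cells 7 or 8 were called and no sign changed; Clec12a missed the call without esculetin replicate 2 and under the study's criterion, and Clec4n was not tested with the filter at 1 CPM. The count of liver pathway genes called, 0, was 4 without a filter (Cebpb, Cebpd, Nr4a1 and Clec3b), 1 under DESeq2 (Cebpb), 7 under the study's criterion in limma-voom, and 0 to 0 in the fits that left out a replicate. In the cells it ran from 35 to 54 around 49. With the longest transcript as gene length, 6 of 10 ranks of level were kept in control cells, 6 in control livers and 6 in esculetin livers. The causes were not tested.

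The replicate numbers were checked for pairing: deviations of same-numbered libraries correlated at 0.14, -0.00529 and 0.103 in the liver and at 0.165, -0.0298 and 0.0796 in the cells, so not all passed 0.1, not every library correlated best with its own number, and they share a number only. With the replicate block 2 liver pathway genes were called (Cebpb and Nr4a1), and 0 liver and 8 cell receptor genes. Depth limits Clec4e, Clec4d and Clec5a in the liver and Clec4a1, Clec4n and Clec4f in the cells, which held at most 16 counts in any of those libraries.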
